A study of Mus musculus with 12 samples.

Results

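MHC class I antigen presentation and the immunoproteasome were examined through 10 genes, found by symbol in a whole-lung transcript table of 55414 genes: H2-K1, H2-D1, B2m, Tap1, Tap2, Tapbp, Psmb8, Psmb9, Psmb10 and Nlrc5. The 12 libraries came from the lungs of 12 mice that had received lipopolysaccharide (LPS, a cell wall component of Gram-negative bacteria that injures the lung when it enters the airways), collected on day 4. IL-10 B-WT was the control group of 6 mice, and IL-10 B-KO was a group of 6 mice whose B cells lack the anti-inflammatory cytokine IL-10. Per the study's methods, IL-10 B-KO mice carried floxed Il10 alleles and mb1-cre, a Cre recombinase expressed from the B cell gene Cd79a (mb1), on a C57BL/6J background, and whether IL-10 B-WT mice carried a floxed allele or Cre, and the age and sex of the mice, are not given in the sources used here. All 12 mice received LPS, so that each comparison is between genotypes in injured lung and none is against uninjured lung. The comparison asks whether loss of IL-10 from B cells goes with a different level of class I presentation transcripts while the injury resolves.

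MHC class I molecules show fragments of a cell's own proteins to CD8 T cells. The fragments are cut by the proteasome, whose catalytic subunits are exchanged for inducible ones to form the immunoproteasome, then pumped into the endoplasmic reticulum by the TAP transporter and loaded with the help of tapasin onto a heavy chain paired with beta-2-microglobulin. Interferon gamma raises the whole set, in part through the transcription factor IRF1, and NLRC5 acts in the nucleus as a transactivator of class I genes.

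Of the 10 genes, 7 lie on mouse chromosome 17 in or near the MHC, with B2m on chromosome 2 and Psmb10 and Nlrc5 on chromosome 8 (GENCODE M21 annotation, GRCm38). Psmb9, Tap1, Psmb8 and Tap2 stand together in chr17:34181987-34216321, and H2-K1 (chr17:33996017-34000347, minus strand) and H2-D1 (chr17:35262730-35267499, plus strand) lie on either side. Bases before the RefSeq starts of H2-K1, H2-D1 and B2m are shown. These 3 genes had the smallest genotype p-values, and H2-K1 and H2-D1 share letters there. GENCODE starts H2-D1 further upstream than RefSeq, so the H2-D1 bases shown lie inside its GENCODE gene body and may be transcribed. All were taken from RefSeq on GRCm38.p6, 5′ to 3′ along the gene's own strand, from chr17:34000348-34000477 for H2-K1, chr17:35262924-35262952 for H2-D1 and chr2:122147537-122147685 for B2m. Capitals mark matches to the letters of known promoter elements. Along H2-K1 and H2-D1 the first is that of an NF-kB site, GGGATTCCC, and the next that of an interferon element, GAANNGAAA, which is read on the other strand. The CRE-like letters TGACG follow, and then the Y box CCAAT on the other strand, both outside the H2-D1 bases shown. In B2m the interferon-stimulated element GAAANNGAAA comes first.
H2-K1: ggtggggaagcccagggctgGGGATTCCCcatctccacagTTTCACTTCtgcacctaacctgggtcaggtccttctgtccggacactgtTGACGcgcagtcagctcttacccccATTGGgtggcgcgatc
H2-D1: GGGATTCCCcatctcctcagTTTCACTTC
B2m: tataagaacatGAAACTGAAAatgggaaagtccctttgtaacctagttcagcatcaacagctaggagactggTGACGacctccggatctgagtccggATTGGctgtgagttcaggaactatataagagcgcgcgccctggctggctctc

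The H2-D1 stretch covers positions -170 to -142 before its RefSeq start and lines up with positions -110 to -82 of H2-K1. Over the 130 bases of H2-K1 shown and the corresponding 130 bases of H2-D1, 117 were the same. Promoter windows of 300 bases were given for 8 of the 10 members, and Tap2 and Nlrc5 had no entry. Both strands were searched. GGGATTCCC occurred in H2-K1 and H2-D1 and in 0.353% of all 32851 windows, GAANNGAAA in the same 2 members and in 7.52% of windows, and GAAANNGAAA in B2m and in 3.44%. TGACG was in 5 of the 8 members and 20.8% of windows, CCAAT in 6 of the 8 and 37.4%, and TTCNNNGAA, the gamma-activated site, in Psmb8 and 8.3%. Tap1 and Psmb9 run in opposite directions from RefSeq starts with 225 bases between them. The TGACG and CCAAT letters counted for one of them are therefore the same bases counted for the other. These are matches of letters, and no binding was measured.

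Levels are in TPM, a share of all transcripts that corrects for transcript length, so that genes can be compared within a library. TPM keep no read counts, and the depth behind each value is unknown. The deposited values summed to between 991646 and 994430 per library, and between 21380 and 24138 genes were above 0, the fewest in IL-10 B-WT replicate 5. Surfactant protein C (Sftpc), a marker of lung alveoli, was between 2548 and 16424 TPM in the 12 libraries. Il10 itself was at 0 to 0.88 TPM in IL-10 B-WT and 0 to 0.58 TPM in IL-10 B-KO, so that whole-lung RNA does not check the deletion. The B cell receptor gene Cd79a did separate the groups, with 15.3 to 259 TPM in IL-10 B-WT and 0 to 5.73 TPM in IL-10 B-KO (log2 fold change -4.16 ± 0.71 SE, adjusted p = 0.0222, limma). It is also the gene that drives the Cre. IL-10 B-WT replicate 1 stood apart from its group, with Irf1 at 883 TPM against a group median of 115. IL-10 B-KO replicate 5 was likewise high, with Irf1 at 738 TPM against a group median of 155. The genotype comparison of the members is also given without IL-10 B-WT replicate 1, a lung picked by its values, while IL-10 B-KO replicate 5 stays in. The lung left out was above the mean of its group for every member, so leaving it out raises each difference by construction.

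The 3 genes that encode the class I molecule itself were the most abundant members in every lung and carried the clearest genotype difference. H2-K1 and H2-D1 were higher in 5 of 6 IL-10 B-KO lungs than in every IL-10 B-WT lung, by about 1 log2 unit on average. Together with B2m they made up 0.658% to 1.72% of all transcripts in IL-10 B-WT and 1.32% to 2.14% in IL-10 B-KO. In whole lung, more cells of a type and more RNA per cell cannot be told apart. No member was called in all 12 lungs, where a call needed an adjusted p no higher than 0.05 and a log2 fold change of 1 or more in size. All 10 members had log2 fold changes above 0, and their median was 0.80 against 0.10 over all genes tested.

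**Figure D1:**
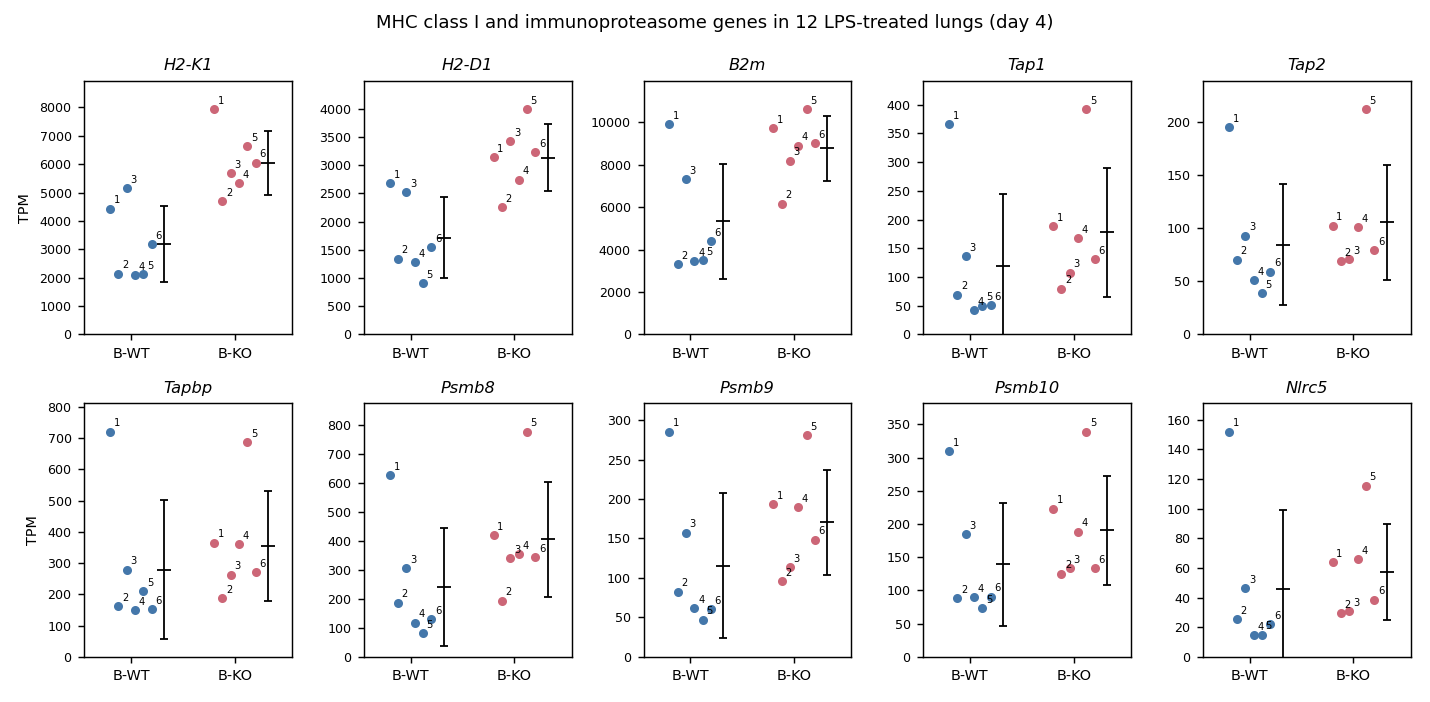
TPM of each of the 10 members on linear axes from 0, with 1 numbered point for each lung (IL-10 B-WT blue, IL-10 B-KO red) and the mean ± SD beside each group of 6 (the lower bars of Tap1 and Nlrc5 are cut at 0). IL-10 B-WT replicate 1 reaches 367 TPM for Tap1 and 152 TPM for Nlrc5, far above the other IL-10 B-WT lungs, while for H2-K1 it lies among them and below 6 of 6 IL-10 B-KO lungs.

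H2-K1, a classical class I heavy chain, ranged from 2094 to 5144 TPM in IL-10 B-WT (median 2663) and from 4697 to 7939 TPM in IL-10 B-KO (median 5869). The groups overlapped through replicate 3, the highest IL-10 B-WT lung, and replicate 2, the lowest IL-10 B-KO lung. The mean of IL-10 B-WT was 3187 ± 1327 TPM and that of IL-10 B-KO was 6056 ± 1131 TPM (SD, n = 6 each). The log2 fold change, IL-10 B-KO over IL-10 B-WT on log2(TPM + 1), was 1.01 ± 0.27 (SE), with a 95% interval of 0.42 to 1.60, an unadjusted p of 0.00270 and an adjusted p of 0.161 (limma). A two-sided exact permutation test of H2-K1 alone over the 924 arrangements of the lungs gave p = 0.00433, where 0.00216 is the smallest possible. Without IL-10 B-WT replicate 1 the log2 fold change was 1.12 and the adjusted p was 0.0422.

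H2-D1, the other classical heavy chain of this strain, ranged from 908 to 2684 TPM in IL-10 B-WT (median 1443) and from 2252 to 3993 TPM in IL-10 B-KO (median 3186). Only IL-10 B-KO replicate 2 fell within the range of IL-10 B-WT, below replicates 1 and 3 of that group. The means were 1712 ± 720 and 3131 ± 594 TPM (SD, n = 6 each). The log2 fold change was 0.95 ± 0.27 (SE), with an adjusted p of 0.190 (limma), and the exact permutation test gave p = 0.00866. H2-K1 and H2-D1 have 88.4% identical coding sequence, and reads that match both may have been divided between them by the authors' counting, which makes each of these levels uncertain.

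B2m, the light chain that every class I molecule needs, ranged from 3326 to 9927 TPM in IL-10 B-WT (median 3962) and from 6158 to 10624 TPM in IL-10 B-KO (median 8965). IL-10 B-WT replicate 1 lay among the highest IL-10 B-KO lungs, replicate 3 above only the lowest of them, and the other 4 IL-10 B-WT lungs below every IL-10 B-KO lung. The means were 5328 ± 2714 and 8773 ± 1524 TPM (SD, n = 6 each). The log2 fold change was 0.84 ± 0.30 (SE), with an unadjusted p of 0.0164 and an adjusted p of 0.325 (limma). Without IL-10 B-WT replicate 1 it was 1.04, with an adjusted p of 0.0471, and H2-D1 then had 1.10, with an adjusted p of 0.0394.

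Among the members that carry and load peptides, Tap1 had a log2 fold change close to that of B2m with a larger standard error, and those of Tap2 and Tapbp were smaller. Tap1, one chain of the peptide transporter, ranged from 42.1 to 367 TPM in IL-10 B-WT (median 60.1) and from 79.6 to 392 TPM in IL-10 B-KO (median 149). IL-10 B-WT replicate 1 was higher than 5 of the 6 IL-10 B-KO lungs, while 4 IL-10 B-WT lungs were below every IL-10 B-KO lung. The log2 fold change of Tap1 was 0.86 ± 0.51 (SE), with a 95% interval of -0.24 to 1.96 and an adjusted p of 0.483 (limma). Tap2, its partner chain, ranged from 38.7 to 195 TPM in IL-10 B-WT and from 68.8 to 212 TPM in IL-10 B-KO, with a log2 fold change of 0.41 ± 0.37 (SE) and an adjusted p of 0.627 (limma). Tapbp, which encodes the loading chaperone tapasin, ranged from 149 to 721 TPM and from 188 to 687 TPM in the same order, with a log2 fold change of 0.49 ± 0.39 (SE) and an adjusted p of 0.586 (limma). For Tap2 and Tapbp, as for Tap1, replicate 1 of IL-10 B-WT and replicate 5 of IL-10 B-KO were the highest lungs of their groups.

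The inducible catalytic subunits were likewise highest in replicate 1 of IL-10 B-WT and replicate 5 of IL-10 B-KO within their groups. Psmb8, the inducible subunit with chymotrypsin-like activity, ranged from 81.1 to 627 TPM in IL-10 B-WT (median 158) and from 194 to 778 TPM in IL-10 B-KO (median 349.9). Its 2 lowest IL-10 B-WT lungs, replicates 5 and 4, were at 81.1 and 118 TPM, and its lowest IL-10 B-KO lung, replicate 2, was at 194 TPM. The log2 fold change of Psmb8 was 0.98 ± 0.45 (SE), with a 95% interval of 0.01 to 1.95, an unadjusted p of 0.0489 and an adjusted p of 0.395 (limma), and the exact permutation test gave p = 0.0823. Psmb9, encoded next to Tap1, ranged from 47.2 to 285 TPM in IL-10 B-WT and from 95.6 to 281 TPM in IL-10 B-KO, with a log2 fold change of 0.77 ± 0.41 (SE) and an adjusted p of 0.454 (limma). Psmb10, which lies outside the MHC, ranged from 73.4 to 309.8 TPM and from 125 to 339 TPM, with a log2 fold change of 0.56 ± 0.36 (SE) and an adjusted p of 0.512 (limma). In GENCODE, unlike with the RefSeq starts given above, the annotated bodies of Tap1 and Psmb9 overlap by 212 bases on opposite strands. Without a stated strand setting, reads from that overlap cannot be assigned to one of them.

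Nlrc5 was the least abundant member in 12 of 12 lungs. It ranged from 14.7 to 152 TPM in IL-10 B-WT (median 23.9) and from 29.5 to 116 TPM in IL-10 B-KO (median 51.2). Its 4 lowest IL-10 B-WT lungs were below every IL-10 B-KO lung, and IL-10 B-WT replicate 1 was above all of them. The log2 fold change was 0.68 ± 0.52 (SE), with a 95% interval of -0.44 to 1.81 and an adjusted p of 0.567 (limma).

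Counted together, 0 of the 10 members were called by limma, against 0.495% of the 15148 genes tested when both directions are taken. Higher levels in IL-10 B-KO were called for 0.0264% of genes. At the unadjusted threshold, a limma p-value no higher than 0.05 before adjustment, 4 of the 10 were higher in IL-10 B-KO (H2-K1, H2-D1, B2m and Psmb8), against 6.83% of all genes, and 0 were lower, against 5.71%. Log2 fold changes above 0 were found for 10 of 10 members and for 63.2% of all genes. For none of the members did the 2 groups fail to overlap, against 1.02% of all genes. For every member, all 6 IL-10 B-KO lungs were above the median IL-10 B-WT lung. The share of all genes with this pattern is not given here, and it was not particular to the members. Of the constitutive proteasome subunits, Psmb5 and Psmb6 also had it, and Psmb7 had 5 of 6 IL-10 B-KO lungs above that median.

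Leaving out IL-10 B-WT replicate 1, a lung picked by its values and high for the members, changed this count. H2-K1, H2-D1 and B2m were then called higher in IL-10 B-KO, against 2.30% of 14943 genes, and 10 of 10 members were higher past the unadjusted threshold, against 17.9% of genes. The median log2 fold change of the members was 1.10 and that of all genes 0.16. Psmb8 had the largest value, 1.32 ± 0.36 (SE), with an adjusted p of 0.0536 (limma). Tap1 had 1.28 ± 0.39 (SE), with an adjusted p of 0.0708 (limma). Nlrc5 had 1.13 ± 0.38 (SE), with an adjusted p of 0.0906 (limma). The other 4 had 1.09 for Psmb9, 0.83 for Psmb10, 0.82 for Tapbp and 0.69 for Tap2, with adjusted p-values of 0.0679 to 0.171 (limma). Leaving out any other lung called 0 members, as did leaving out both IL-10 B-WT replicates 1 and 5, the latter the lowest lung for many members. Without IL-10 B-KO replicate 5 alone, also a high lung, the log2 fold changes were smaller. H2-K1 then had 0.98, H2-D1 0.88, B2m 0.78, Psmb9 0.61, Tap1 0.59, Nlrc5 0.45, Psmb10 0.37, Tapbp 0.28 and Tap2 0.19. Psmb8 had 0.76, with an unadjusted p of 0.1125 (limma). Without IL-10 B-WT replicate 5 alone, Psmb8 had 0.74, with an unadjusted p of 0.122 (limma).

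**Figure D2:**
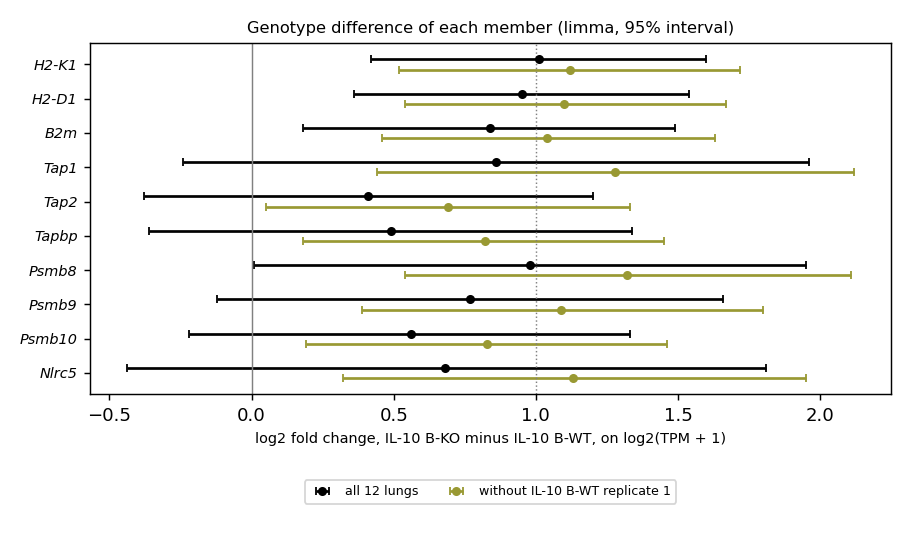
Log2 fold change of each member, IL-10 B-KO minus IL-10 B-WT on log2(TPM + 1), with its 95% interval from limma, in all 12 lungs (black) and without IL-10 B-WT replicate 1 (olive). The solid line marks 0 and the dotted line 1. All 10 estimates lie above 0 in both analyses, the intervals of H2-K1, H2-D1, B2m and Psmb8 exclude 0 in all 12 lungs, and the move on leaving out the lung is smallest for H2-K1 (1.01 to 1.12).

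Over the 12 lungs the chains of the class I molecule were the most abundant members, and the transporter, loading and proteasome genes were interleaved below them. B2m had the highest mean (7050.2 ± 2764 TPM, SD, n = 12), then H2-K1 (4622 ± 1905) and H2-D1 (2422 ± 972), and each was above the next in 12 of 12 lungs. Psmb8 (324 ± 209.9) and Tapbp (317 ± 195) followed at similar levels, with Psmb8 above Tapbp in 7 of 12 lungs. Psmb10 (165 ± 87.7), Tap1 (148 ± 118) and Psmb9 (143 ± 81.8) formed a close group in which Tap1 was above Psmb9 in only 3 of 12 lungs despite its higher mean. Tap2 (95.1 ± 54.3) and Nlrc5 (51.6 ± 42.5) were lowest. The range between lungs was narrower for the most abundant members, from 3.20-fold for B2m and 3.79-fold for H2-K1 to 9.32-fold for Tap1, 9.60-fold for Psmb8 and 10.3-fold for Nlrc5.

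Each inducible catalytic subunit takes the place of a constitutive one, Psmb8 of Psmb5, Psmb9 of Psmb6 and Psmb10 of Psmb7, so their ratio within a lung does not depend on the scaling of the library. The constitutive subunits were themselves higher in IL-10 B-KO on average, with log2 fold changes of 0.61 ± 0.24 (SE) for Psmb5 (unadjusted p = 0.0238, limma), 0.37 ± 0.20 for Psmb6 and 0.55 ± 0.27 for Psmb7. The Psmb8 to Psmb5 ratio ranged from 1.24 to 4.18 in IL-10 B-WT and from 1.77 to 4.05 in IL-10 B-KO, a difference of 0.36 in mean log2 ratio with a 95% interval of -0.40 to 1.10 (two-sided exact permutation test, p = 0.286, adjusted over the 3 ratios p = 0.429). The Psmb9 to Psmb6 ratio ranged from 0.348 to 1.20 and from 0.412 to 1.05, a difference of 0.41 with an interval of -0.43 to 1.21 (exact permutation test, p = 0.279, adjusted p = 0.429). The Psmb10 to Psmb7 ratio ranged from 1.18 to 2.99 and from 1.06 to 2.63, a difference of 0.00 with an interval of -0.73 to 0.73 (exact permutation test, p = 0.996, adjusted p = 0.996). A genotype difference in the balance of inducible to constitutive subunits was thus not detected, and the intervals reach up to 1.10 log2 units for Psmb8 over Psmb5 and 1.21 for Psmb9 over Psmb6. Without IL-10 B-WT replicate 1 the differences were 0.57, 0.63 and 0.14, with exact permutation p-values of 0.0801, 0.0823 and 0.675.

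**Figure D3:**
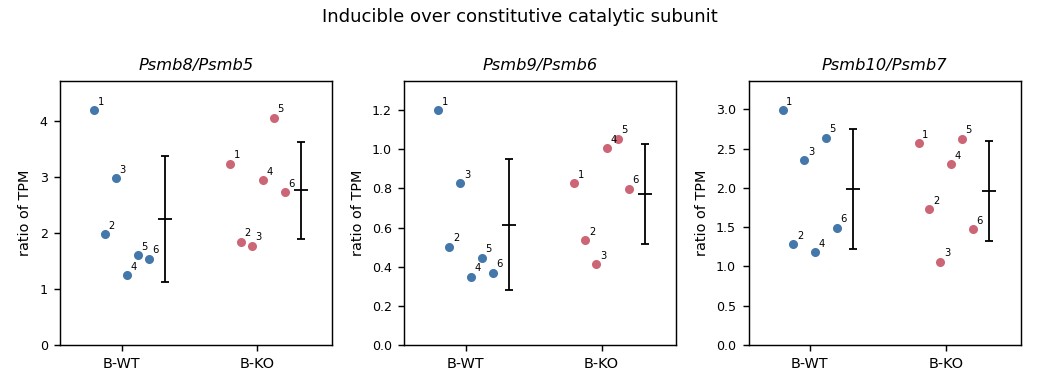
Ratio of TPM of each inducible catalytic subunit to the constitutive subunit it replaces, on linear axes from 0, with 1 numbered point for each lung and the mean ± SD beside each group of 6. The groups overlap in all 3 panels, and IL-10 B-WT replicate 1 has the highest ratio of all 12 lungs in each (4.18, 1.20 and 2.99).

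The ratio of the class I chains to the transporter was also computed, a choice made after the values were seen. The H2-K1 to Tap1 ratio was 12.1 in replicate 1 of IL-10 B-WT and 16.9 in replicate 5 of IL-10 B-KO, against 30.95 to 62.4 in the other 10 lungs. Between the genotypes the mean log2 ratio differed by 0.13 for H2-K1, 0.08 for H2-D1 and -0.04 for B2m (two-sided exact permutation test, p = 0.734, 0.829 and 0.875). Tap1 is the denominator of these ratios, so that a lung with much Tap1 tends to a low ratio by construction.

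The members varied together from lung to lung. After the mean of each genotype was removed, the 45 pairs of members had correlations from 0.65 (H2-K1 and Tapbp) to 0.98 (Tap1 and Nlrc5), with a median of 0.91 over the 12 lungs. These values share the library scaling. Nlrc5 was correlated with all 9 other members on log2(TPM + 1), most closely with Tap1 (Pearson's r = 0.98, Spearman's rho = 0.99, permutation p = 1e-05, the smallest 100000 resamples can give) and least with H2-K1 (r = 0.70, rho = 0.71, permutation p = 0.0123). Over the family of 19 relations computed, the largest adjusted p for Nlrc5 was 0.0129. Without replicate 1 of IL-10 B-WT and replicate 5 of IL-10 B-KO, the 2 lungs farthest from the median of Nlrc5, r was 0.82 to 0.97. For H2-K1 it was then 0.86, and for Tap1 0.97. Within IL-10 B-WT, r was 0.78 for H2-K1 and 0.99 for Tap1 (exact permutation p = 0.0514 and 0.00139), and within IL-10 B-KO 0.56 and 0.97 (exact permutation p = 0.244 and 0.00278). The relation with H2-K1 therefore did not pass within either genotype. All genes had a median r of 0.40 with Nlrc5, and 16.7% of 15147 genes reached the r of H2-K1, the lowest among the members.

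**Figure D4:**
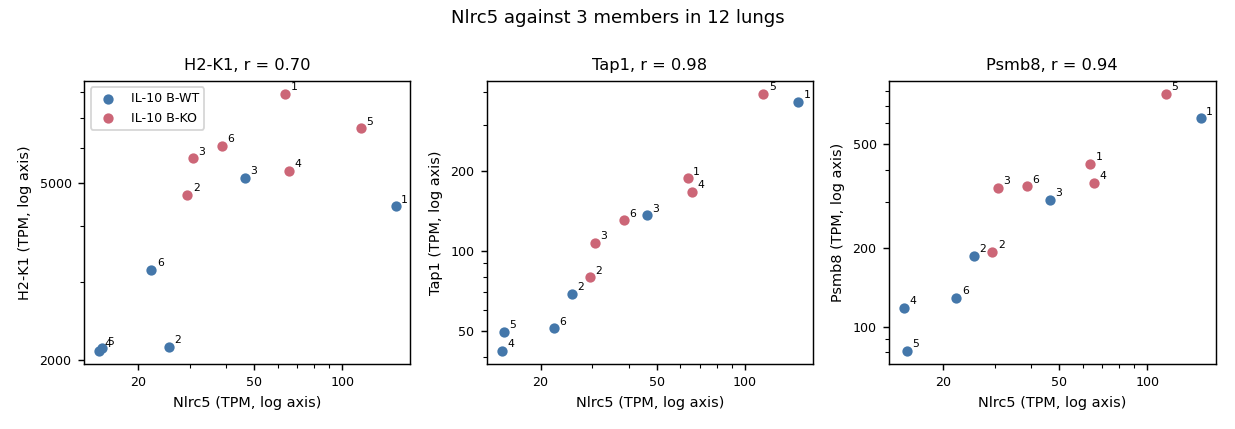
Nlrc5 against H2-K1, Tap1 and Psmb8 in TPM on log axes, with 1 numbered point for each of the 12 lungs (IL-10 B-WT blue, IL-10 B-KO red) and Pearson's r on log2(TPM + 1) above each panel. Tap1 follows Nlrc5 closely across both groups (r = 0.98), whereas for H2-K1 (r = 0.70) the IL-10 B-WT replicate 1 lies at the highest Nlrc5 with an H2-K1 level of 4433 TPM, below every IL-10 B-KO lung.

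The genes whose variation within the genotypes was most like the mean of the 10 members, out of 15138 tested genes, were Ifit3 (r = 0.989 over 12 lungs), Psme2 (0.986), H2-T23 (0.984), H2-T22 (0.982), Isg15 (0.980), Ggct (0.979), Zbp1 (0.977), Gbp8 (0.975), Gdf15 (0.974) and Oas3 (0.974). Ifit3, Isg15, Zbp1, Gbp8 and Oas3 are known as interferon-induced genes, Psme2 encodes a subunit of the proteasome activator PA28, and H2-T23 and H2-T22 are nonclassical class I heavy chains. The median gene had r = 0.44, and 1.47% of genes reached 0.9.

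Among 14 nonclassical class I and related genes, 11 had log2 fold changes above 0, against 63.2% of all genes, with a median of 0.68 over the 14. The unadjusted threshold was passed by 7, all higher in IL-10 B-KO, against 6.83% of all genes. H2-Q7 ranged from 178 to 651 TPM in IL-10 B-WT and from 625 to 781 TPM in IL-10 B-KO, with a log2 fold change of 1.11 ± 0.28 (SE) and an adjusted p of 0.115 (limma). H2-T22, a ligand of gamma delta T cell receptors, ranged from 65.7 to 292 TPM and from 143 to 455 TPM, with a log2 fold change of 1.13 ± 0.37 (SE). H2-Q6 (0.96 ± 0.25), H2-Q4 (0.97 ± 0.32), H2-Q10 (0.83 ± 0.32) and H2-T23 (0.84 ± 0.34), which encodes Qa-1, a ligand of inhibitory receptors on natural killer cells, also passed it. H2-M3, which presents formylated peptides, was the seventh, at 0.67 ± 0.29. Cd1d1, Mr1 and Fcgrt, class I-like genes that present lipids or metabolites or carry immunoglobulin G, had values of -0.05, -0.08 and -0.21. H2-Q6 and H2-Q7 share 93.2% of their coding sequence, and their levels are uncertain for the same reason as those of H2-K1 and H2-D1. None of the 14 was called in all 12 lungs. Without IL-10 B-WT replicate 1, the lung picked by its values, 4 (H2-Q4, H2-Q6, H2-Q7 and H2-T22) were called higher, against 2.30% of all genes. That lung was above the IL-10 B-WT mean for these 4, so leaving it out raises their differences by construction.

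The other subunits of the core proteasome had smaller differences. Log2 fold changes were above 0 for 11 of 11, from 0.36 to 0.64 with a median of 0.50. The unadjusted threshold was passed by 5 (Psma5, Psmb1, Psmb4, Psmb3 and Psma1), all higher, against 6.83% of all genes. The activators and the inhibitor of the proteasome, 5 genes, had a median of 0.41, with Psme1 at 0.52 and Psme2 at 0.57, and the 7 other genes of peptide loading, among them calreticulin (Calr), Pdia3 and the trimming peptidase Erap1, one of 0.36. None of these 12 genes passed the unadjusted threshold. The promoter-bound partners of NLRC5 and the NF-Y and CREB factors, 7 genes, had a median of 0.01 and values from -0.11 to 0.10.

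Interferon signalling genes did not pass the test. Of 14, 13 were tested, all with log2 fold changes above 0 and a median of 0.34, and none passed the unadjusted threshold (limma). Ifng ranged from 0.17 to 9.92 TPM in IL-10 B-WT and from 0.43 to 10.3 TPM in IL-10 B-KO, and its highest lungs were replicate 1 of IL-10 B-WT and replicate 5 of IL-10 B-KO. Irf1 ranged from 74.7 to 883 and from 132 to 738 TPM, with a log2 fold change of 0.42 ± 0.57 (SE). Ifnb1 was at or below 0.12 TPM in all 12 lungs. Without IL-10 B-WT replicate 1, 8 of the 13 were higher past the unadjusted threshold, against 17.9% of all genes, and the median was 0.59.

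**Figure D5:**
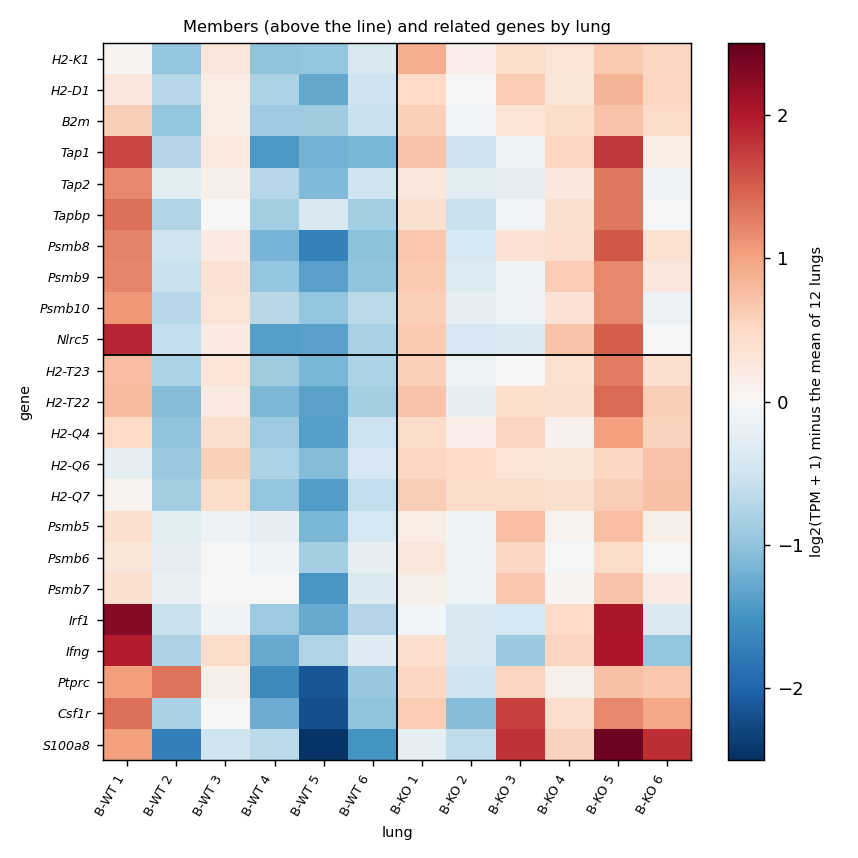
Log2(TPM + 1) of the 10 members (above the line) and of related genes in each lung, minus the mean of the 12 lungs (red higher, blue lower, scale from -2.5 to 2.5). Replicate 1 of IL-10 B-WT and replicate 5 of IL-10 B-KO are the reddest columns for Tap1, Nlrc5 and Irf1, whereas H2-K1 in IL-10 B-WT replicate 1 (4433 TPM) is near the mean.

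At the unadjusted threshold, markers of neutrophils and most of those of monocytes and macrophages were higher in IL-10 B-KO and those of B cells were lower, and no other white blood cell marker passed it. Over all genes tested, 6.83% were higher and 5.71% lower past that threshold. Neutrophil markers (S100a8, S100a9, Ly6g, Csf3r and Mmp8) passed the unadjusted threshold in 5 of 5, the median log2 fold change was 1.87, and their summed level was 243 to 2312 TPM in IL-10 B-WT and 965 to 6678 TPM in IL-10 B-KO. Monocyte and macrophage markers passed it in 4 of 6, with a median of 1.32 and sums of 111 to 1665 and 246 to 2040 TPM. Pan-leukocyte markers (Ptprc, Laptm5 and Coro1a) had a median of 0.73, with 0 of 3 passing and sums of 113 to 810.2 and 270.3 to 807 TPM. The B cell markers Ms4a1, Cd79a and Cd79b were lower in IL-10 B-KO past the unadjusted threshold in 3 of 3, with log2 fold changes of -2.03, -4.16 and -1.90. The other lists had medians of 0.02 for T cells (0 of 6 past the unadjusted threshold, sums of 13.8 to 127 and 19.5 to 138 TPM) and 0.37 for natural killer cells (0 of 4, sums of 37.9 to 114 and 28.8 to 170.0 TPM). Endothelial markers had a median of -0.39 (1 of 4, Kdr, lower), with sums of 1138 to 2403 and 1171 to 2073 TPM. Medians were -0.11 for epithelium (1 of 5, Sftpb, higher), -0.11 for the 2 dendritic cell markers tested, and 0.26 for the 2 fibroblast markers. The part of these cells in the levels of the members was not tested.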

How the data were processed

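Total RNA was sequenced from 12 mouse lungs by the authors, and the deposited table holds TPM per gene with 2 decimals. The submitters' processing notes name fastp, HISAT, RSEM and GRCm38.p5, and versions, annotation release and strand setting are not given in the sources used here. Groups were taken from the labels, 6 mice each. The study's methods name several tools for differential expression, limma among them, with an adjusted p of 0.05 and a fold of change of 1, which was read here as a log2 fold change of 1. TPM were analysed as log2(TPM + 1) with limma 3.58.1 in R 4.3.3 (lmFit, eBayes with a trend, genotype as the term), over the 15148 genes that reached 1 TPM in 6 or more lungs, with Benjamini-Hochberg adjustment over all of them. On data simulated for this comparison over 15148 genes, 86 of 100 genes changed by a log2 of 2 and 95 of 100 changed by 3 were called, with 3 false calls. Changes of the size found for the members, 0.41 to 1.01, were not simulated, so the power to call them is not known.

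Single genes and ratios were compared by two-sided exact permutation tests, with intervals from inverting the test, and correlations by 100000 permutations (SciPy 1.17.1). Promoter windows came from RefSeq (GRCm38.p6) and coordinates from GENCODE M21 (GRCm38). The members and the gene and marker lists were chosen with earlier results of these data known. Named genes were the 10 members, list genes with an unadjusted p of at most 0.05 (at most 6 a list), Psmb5, Psmb6 and Psmb7, the 10 genes most like the members, and cell markers. Others named (H2-M3, Cd1d1, Mr1, Fcgrt, Psme1, Psme2, Calr, Pdia3, Erap1 and the interferon genes) were picked for their roles after the values were seen. Whether replicates shared a litter, cage or sequencing run is not given. Alternatives comprised the pseudocount, the filter, the scaling, array weights, a replicate block and leaving out lungs. Some results of the comparisons made are not reported here.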

Additional observations from a re-analysis of the deposited data

Results flagged for a closer look

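In 32 groups of 6 lungs (10 members and 6 ratios, each in both genotypes), 2 held a lung whose gap to its nearest neighbour took up more of the group's range than Dixon's 95% limit allows, and chance alone flags about 1 group in 20. Tap2 was at 212.12 TPM in IL-10 B-KO replicate 5, the highest of its group, against 68.8 to 102 TPM in the other 5 lungs. The H2-D1 to Tap1 ratio was 7.322 in IL-10 B-WT replicate 1, the lowest of its group, against 18.3 to 30.4 in the other 5. Ifng and Irf1 were also highest in these 2 lungs within their groups, and the part of interferon in these values was not tested.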

How the results depend on the processing

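TPM keep no counts, and 6 lungs a group with a wide spread in IL-10 B-WT limit what can be told. Member log2 fold changes were above 0 in 210 of 210 combinations of member and alternative, and an adjusted p of at most 0.05 was reached in 3, all without IL-10 B-WT replicate 1. Of the 10 members, 0 to 3 were called when 1 lung was left out and 0 under the other alternatives, and 3 to 10 had an unadjusted p of at most 0.05 when 1 lung was left out, against 2 with no filter on low values (where B2m had the largest unadjusted p of its alternatives, 0.0886) and 9 without both IL-10 B-WT replicates 1 and 5, an alternative chosen after the data were seen. The 75 genes called in all became 6 with no filter, 27 rescaled without immunoglobulin genes, 39 with quantile normalization, 36 with median centring, 318 with array quality weights and 15 to 576 with 1 lung left out (576 without IL-10 B-WT replicate 1, 15 without IL-10 B-KO replicate 5). The median log2 fold change of all genes was 0.10 as deposited, 0.01 after quantile normalization and -0.01 after median centring. With the replicate number as a block, 45 genes and 0 members were called and 3 members had an unadjusted p of at most 0.05. Same-numbered lungs had correlations of -0.292 to 0.046, 0 of 12 lungs correlated best with its own number, and the lungs share only a number. With 1 lung left out the log2 difference ranged from -0.13 to 0.16 for Psmb10 over Psmb7, from -0.17 to 0.37 for H2-K1 over Tap1, from -0.19 to 0.28 for H2-D1 over Tap1 and from -0.25 to 0.17 for B2m over Tap1, none of them with an exact permutation p of at most 0.05. The 19 correlations passed in all 3 alternatives. The cause of these changes was not tested.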
